A study of Homo sapiens with 6 samples.

Results

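The 8 genes described here encode the receptors that cells use to read fibroblast growth factors (FGFs) and the proteins that sit directly at those receptors, and they were followed in MDA-MB-453 cells after depletion of *DUSP6*. They were chosen by name, with earlier results of these data known, as the rows of the deposited expression table with the symbols *FGFR1*, *FGFR2*, *FGFR3*, *FGFR4*, *FGFRL1*, *FRS2*, *FRS3* and *KLB*, and all 8 were found among the 22807 genes of the table. MDA-MB-453 is an established HER2+ breast cancer cell line that is known to depend on *FGFR4*. RNA was sequenced in bulk from 3 libraries of cells transiently transfected with scrambled siRNA and from 3 libraries of cells transfected with *DUSP6* siRNA, with no other agent named in the labels. The study describes 3 different siRNAs in each group, but the siRNA behind each single library is not given in the sources used here, and neither is the time of harvest. No label says that the libraries came from separate cultures, so the p-values below measure only the spread between these 6 libraries.

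FGFs bind receptor tyrosine kinases at the cell surface, with heparan sulfate or a klotho protein as a partner, and the receptors dimerize and phosphorylate themselves. The docking proteins FRS2 and FRS3 then carry the signal from the receptor to GRB2, SOS, RAS and ERK. DUSP6 is a phosphatase that removes the activating phosphates from ERK, and its own gene is one of the feedback genes that FGF and ERK signals switch on. *FGFR4*, with *KLB* as its co-receptor, is best known as the receptor of the endocrine factor FGF19.

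The upstream sequences of *FGFR4*, the receptor the line depends on, and of the paralogous adaptor genes *FRS2* and *FRS3*, which were called in opposite directions, are shown first. No window for *FGFR1* was used here. Each window holds the 250 bases before an annotated start in RefSeq on GRCh38.p14, read 5′ to 3′ on the strand of the gene, and capitals mark matches on either strand to GGGCGG (GC box) or CCGGAAG (ETS motif).
*FGFR4*, first window, plus strand, chr5:177086665-177086914: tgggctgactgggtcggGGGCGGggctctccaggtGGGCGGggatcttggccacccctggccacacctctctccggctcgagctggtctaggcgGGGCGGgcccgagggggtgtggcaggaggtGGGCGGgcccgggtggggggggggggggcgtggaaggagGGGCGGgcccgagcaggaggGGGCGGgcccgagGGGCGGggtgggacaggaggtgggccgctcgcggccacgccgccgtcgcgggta
*FRS2*, plus strand, chr12:69470138-69470387: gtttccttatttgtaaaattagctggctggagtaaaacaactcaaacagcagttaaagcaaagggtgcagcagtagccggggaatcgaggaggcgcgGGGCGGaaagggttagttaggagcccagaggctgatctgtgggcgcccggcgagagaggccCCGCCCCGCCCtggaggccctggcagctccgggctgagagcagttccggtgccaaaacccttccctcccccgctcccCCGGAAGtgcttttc
*FRS3*, minus strand, chr6:41779901-41780150: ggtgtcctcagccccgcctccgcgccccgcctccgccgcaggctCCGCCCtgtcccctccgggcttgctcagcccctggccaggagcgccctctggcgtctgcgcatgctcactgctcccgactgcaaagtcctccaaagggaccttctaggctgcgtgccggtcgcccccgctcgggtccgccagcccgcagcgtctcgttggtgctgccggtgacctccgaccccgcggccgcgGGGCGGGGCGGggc
The first *FGFR4* window held 7 GC boxes and had a GC content of 79.6%. The *FRS2* window held 3 GC boxes, of which a pair overlapped, and 1 ETS motif near its 3′ end, at a GC content of 60.8%. The *FRS3* window held 3 GC boxes, a pair of them overlapping, and no ETS motif, at a GC content of 76.0%. Of 35116 promoter windows of the same length, 42.6% held at least 1 GC box and 8.52% held the ETS motif. The table gave 12 such windows for 7 of the 8 genes. *FGFR4* had a further window at chr5:177089300-177089549, with no GC box and 1 CACGTG (E box, in 6.34% of all windows), and *FGFR2* had 5. None of the 12 windows held an AP-1 motif, spelled TGANTCA and found in 6.57% of all windows, or an E2F motif, spelled GCGGGAAA and found in 1.39%. These matches describe letters, not bound sites.

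Of the 7 genes that could be tested, 3 were higher with *DUSP6* siRNA (*FGFR1*, *FGFR3* and *FRS3*), 2 were lower (*FGFR4* and *FRS2*), and *FGFR2* and *FGFRL1* did not pass the test. Across all 12862 genes tested, 19.7% were called higher and 24.7% lower, so 3 and 2 of 7 genes are counts of the size that the whole table gave. *FGFR3* entered the test only through its values with *DUSP6* siRNA, and the count of higher genes has to be read with that. A value here is the read count of a gene divided by a library size that was scaled by the TMM method (trimmed mean of M values). The TMM factors differed by group, at 0.881, 0.923 and 0.968 with scrambled siRNA and 1.09, 1.08 and 1.08 with *DUSP6* siRNA. A higher factor lowers the values of its library. Each order of libraries given here, with or without overlap, is that of the scaled values, and the order without this scaling was not tested. limma compared log2(value + 1) between the groups wherever the mean over the 6 libraries reached 1, and a gene was called where its p, adjusted by the Benjamini-Hochberg method over all genes tested, was under 0.05. Adding 1 makes the fold changes of low genes smaller. In bulk RNA, fewer cells that express a gene and less RNA per cell cannot be told apart.

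**Figure D1:**
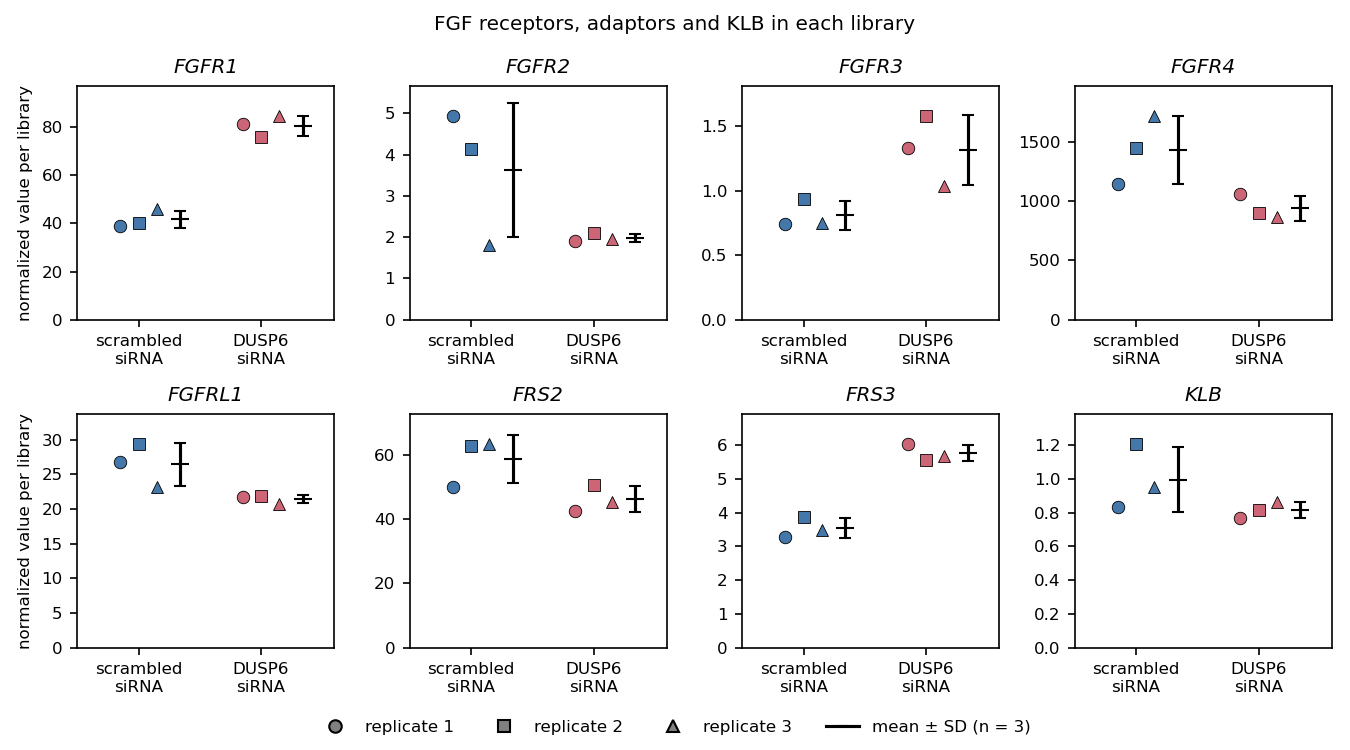
Normalized value of each of the 8 genes (y axis, linear from 0, a different range in each panel) in the 3 scrambled siRNA libraries (blue) and the 3 *DUSP6* siRNA libraries (red), with the mean ± SD of each group in black. *FGFR1* (39.1 to 45.8 against 75.9 to 84.3) and *FRS3* (3.29 to 3.87 against 5.56 to 6.03) moved up without overlap, while *FGFR4* moved down with a narrow gap between 1142 and 1057. Of all genes tested, 26.7% moved up and 31.1% moved down without overlap.

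The libraries held between 45546981 and 85729785 reads, and a single read was worth 0.0121 to 0.0202, which leaves counting error small for every gene here except those with values near 1. *DUSP6*, the target of the siRNA, had values of 209, 110 and 114 in the scrambled siRNA libraries and of 39.4, 24.5 and 35.2 in the *DUSP6* siRNA libraries, which is -2.05 on the log2 scale (standard error, SE, 0.25, limma adjusted p = 3.09e-04). Exons of an unnamed gene cover 28.6% of its exon sequence. No pair of libraries agreed within sampling noise, by the chi-square per gene of the recovered reads. This chi-square was 6.87 to 26.8 between *DUSP6* siRNA libraries and 70.4 to 212 between scrambled siRNA libraries. The labelled cell type was checked on 12 luminal and apocrine breast markers, whose summed value was 6013 to 7534 with scrambled siRNA and 3971 to 4349 with *DUSP6* siRNA. Of the 11 that were tested, 9 were lower and the others were not called, beside 24.7% lower and 19.7% higher over all genes tested. The lower ones included *XBP1* (log2 fold change -0.71), *ERBB2* (-0.99), *GATA3* (-0.70) and *KRT19* (-1.81). Markers of fibroblasts summed to 81.0 to 106 and 164 to 194, nearly all of it from *COL1A1*, while *COL1A2*, *COL3A1*, *LUM* and *PDGFRB* stayed below 0.27 in every library. *FAP*, the second highest of that list, was at 0.119, 0.0766 and 0.0723 against 2.04, 1.33 and 2.09, without overlap, and its mean over all libraries was under the filter. Basal epithelial markers summed to 10.6 to 18.8 and 14.8 to 21.0, and of the 3 tested *KRT17* was higher, through its values with *DUSP6* siRNA alone, and *TP63* and *MYLK* were lower, *MYLK* through its values with scrambled siRNA alone. Markers of hematopoietic and endothelial cells summed to at most 0.482 in any library. The part of these shifts in the values of the FGF receptors was not tested.

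*FGFR4* (Entrez gene 2264, GRCh38 chromosome 5, 177086915 to 177098144) encodes the receptor that the line depends on. Scrambled siRNA replicates 1 to 3 had values of 1142, 1451 and 1714, and *DUSP6* siRNA replicates 1 to 3 had 1057, 898 and 864. In these scaled values, all 3 *DUSP6* siRNA libraries lay below all 3 scrambled siRNA libraries, a pattern seen in 31.1% of the genes tested. The gap between the nearest libraries was small and the scrambled siRNA libraries were spread more widely. The mean fell from 1436 ± 287 to 940 ± 103 (SD, n = 3 each), a ratio of 0.654, and the fitted log2 fold change was -0.60 (SE 0.16, limma adjusted p = 0.0132). The call was lost when no filter on low values was used (adjusted p = 0.0541), under quantile normalization, which moved the fold change to -0.33 (adjusted p = 0.0891), and without *DUSP6* siRNA replicate 2 (-0.57, adjusted p = 0.0591) or replicate 3 (-0.54, adjusted p = 0.0577).

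*FGFR4* mRNA was abundant in either group. Per kilobase of its exons, its level ranked 47 of 12347 genes in the scrambled siRNA libraries. It rested on 52267 to 142271 reads per library, so the spread between libraries and not the depth set its error.

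*FGFR1* (Entrez gene 2260, chromosome 8, 38411143 to 38468635) encodes the receptor of many paracrine FGFs and is widely expressed in mesenchymal cells, and 3.05% of its exon sequence is shared with another gene. Its value was 39.1, 40.1 and 45.8 with scrambled siRNA and 81.1, 75.9 and 84.3 with *DUSP6* siRNA. The lowest *DUSP6* siRNA library was well above the highest scrambled siRNA library, an order without overlap that 26.7% of the genes tested also had. The mean rose from 41.6 ± 3.62 to 80.5 ± 4.26 (SD, n = 3 each), a ratio of 1.93, and the fitted log2 fold change was 0.94 (SE 0.10, limma adjusted p = 1.31e-04), which ranked 400 among the increases of all genes tested. The fold change stayed between 0.89 and 1.02 and was called under all 14 alternatives tried.

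The log2 ratio of *FGFR1* to *FGFR4* within a library, a measure chosen after the values were seen, does not depend on the scaling of the library. It was -4.87, -5.18 and -5.23 with scrambled siRNA and -3.70, -3.56 and -3.36 with *DUSP6* siRNA. Each *DUSP6* siRNA library lay above each scrambled siRNA library, and the mean difference was 1.55 on the log2 scale (two-sided exact permutation test, p = 0.1, which is as low as 3 against 3 can go).

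*FGFR2* (Entrez gene 2263, chromosome 10, 121478330 to 121598458), an epithelial FGF receptor, was low. Its value was 4.92, 4.14 and 1.81 with scrambled siRNA and 1.90, 2.09 and 1.96 with *DUSP6* siRNA. The groups overlapped, because scrambled siRNA replicate 3 lay below all *DUSP6* siRNA libraries while the other scrambled siRNA libraries lay above them. The means were 3.62 ± 1.62 and 1.98 ± 0.10 (SD, n = 3 each), and the log2 fold change of -0.56 did not pass the test (SE 0.24, limma adjusted p = 0.0872). Without scrambled siRNA replicate 3 the fold change was -0.89 and was called (adjusted p = 6.08e-04). edgeR on the recovered reads, which adds no 1 to the values, gave -0.86 (adjusted p = 0.0583).

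*FGFR3* (Entrez gene 2261, chromosome 4, 1793293 to 1808867), known for its part in the skeleton and the urothelium, was at the edge of detection. It had 50, 49 and 62 reads in the scrambled siRNA libraries and 66, 129 and 67 reads in the *DUSP6* siRNA libraries, for values of 0.744, 0.939 and 0.747 against 1.33, 1.58 and 1.04. The groups did not overlap, an order that 26.7% of the genes tested also had. The nearest libraries differed by less than the SD of the *DUSP6* siRNA group. The means were 0.810 ± 0.112 and 1.32 ± 0.272 (SD, n = 3 each), and the log2 fold change was 0.35 (SE 0.12, limma adjusted p = 0.0449). The scrambled siRNA libraries alone would not have passed the filter on low values, so a gene with this mean had to differ in order to be tested. The fold change was 0.71 with edgeR on the reads (adjusted p = 0.0303), 0.63 with 0.1 added in place of 1, and 0.20 under quantile normalization (adjusted p = 0.240), and the call was also lost without scrambled siRNA replicate 1 (0.32, adjusted p = 0.102), scrambled siRNA replicate 3 (0.33, adjusted p = 0.0767) or *DUSP6* siRNA replicate 1 (0.34, adjusted p = 0.124), while without *DUSP6* siRNA replicate 2 the gene fell under the filter.

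*FGFRL1* (Entrez gene 53834, chromosome 4, 1010212 to 1026898) encodes a receptor that binds FGFs but has no tyrosine kinase domain. Its values were 26.8, 29.3 and 23.1 with scrambled siRNA and 21.7, 21.9 and 20.7 with *DUSP6* siRNA. In these scaled values, all *DUSP6* siRNA libraries lay below all scrambled siRNA libraries, as in 31.1% of the genes tested. The *DUSP6* siRNA libraries were close to each other. The means were 26.4 ± 3.11 and 21.4 ± 0.624 (SD, n = 3 each), and the log2 fold change of -0.28 did not pass the test (SE 0.11, limma adjusted p = 0.0642). Without scrambled siRNA replicate 3, the lowest of its group, it was -0.37 and passed (adjusted p = 0.0110).

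The docking adaptors FRS2 and FRS3 are paralogs that bind the receptors below the membrane and recruit GRB2 and the phosphatase SHP2, and their genes were called in opposite directions. *FRS3* (Entrez gene 10817, chromosome 6, 41770176 to 41779900, with 4.62% of its exon sequence shared) had values of 3.29, 3.87 and 3.49 with scrambled siRNA and of 6.03, 5.56 and 5.69 with *DUSP6* siRNA. Its groups stood well apart and each was narrow. Groups without overlap in this direction were seen in 26.7% of the genes tested. The mean rose from 3.55 ± 0.296 to 5.76 ± 0.239 (SD, n = 3 each), a ratio of 1.62, and the fitted log2 fold change was 0.57 (SE 0.11, limma adjusted p = 0.00280), and it was called in every alternative that tested it, at 0.45 to 0.70.

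*FRS2* (Entrez gene 10818, chromosome 12, 69470388 to 69579793) had values of 50.1, 63.0 and 63.5 with scrambled siRNA and of 42.6, 50.8 and 45.5 with *DUSP6* siRNA. The groups overlapped, since *DUSP6* siRNA replicate 2 was above scrambled siRNA replicate 1. The mean fell from 58.9 ± 7.56 to 46.3 ± 4.15 (SD, n = 3 each), or -0.34 on the log2 scale, just inside the threshold (SE 0.12, limma adjusted p = 0.0460). Leaving out any library other than scrambled siRNA replicate 1 ended the call (-0.40 to -0.28, adjusted p from 0.0587 to 0.164), as did 3 other settings, so the decrease is uncertain.

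Within a library, the log2 ratio of *FRS3* to *FRS2*, also chosen after the values were seen, was -3.93, -4.02 and -4.18 with scrambled siRNA and -2.82, -3.19 and -3.00 with *DUSP6* siRNA. No library of one group reached the other, and the mean difference was 1.04 on the log2 scale (exact two-sided permutation test, p = 0.1, again the lowest possible).

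*KLB* (Entrez gene 152831, chromosome 4, 39406930 to 39451533), which encodes the co-receptor beta-klotho, fell under the filter and was not tested. It had values of 0.833, 1.21 and 0.952 with scrambled siRNA and of 0.768, 0.819 and 0.865 with *DUSP6* siRNA, from 38 to 79 reads per library. The ranges overlapped, and with no filter the log2 fold change was -0.13 (limma adjusted p = 0.291). A small change in *KLB* was not detectable at this level.

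**Figure D2:**
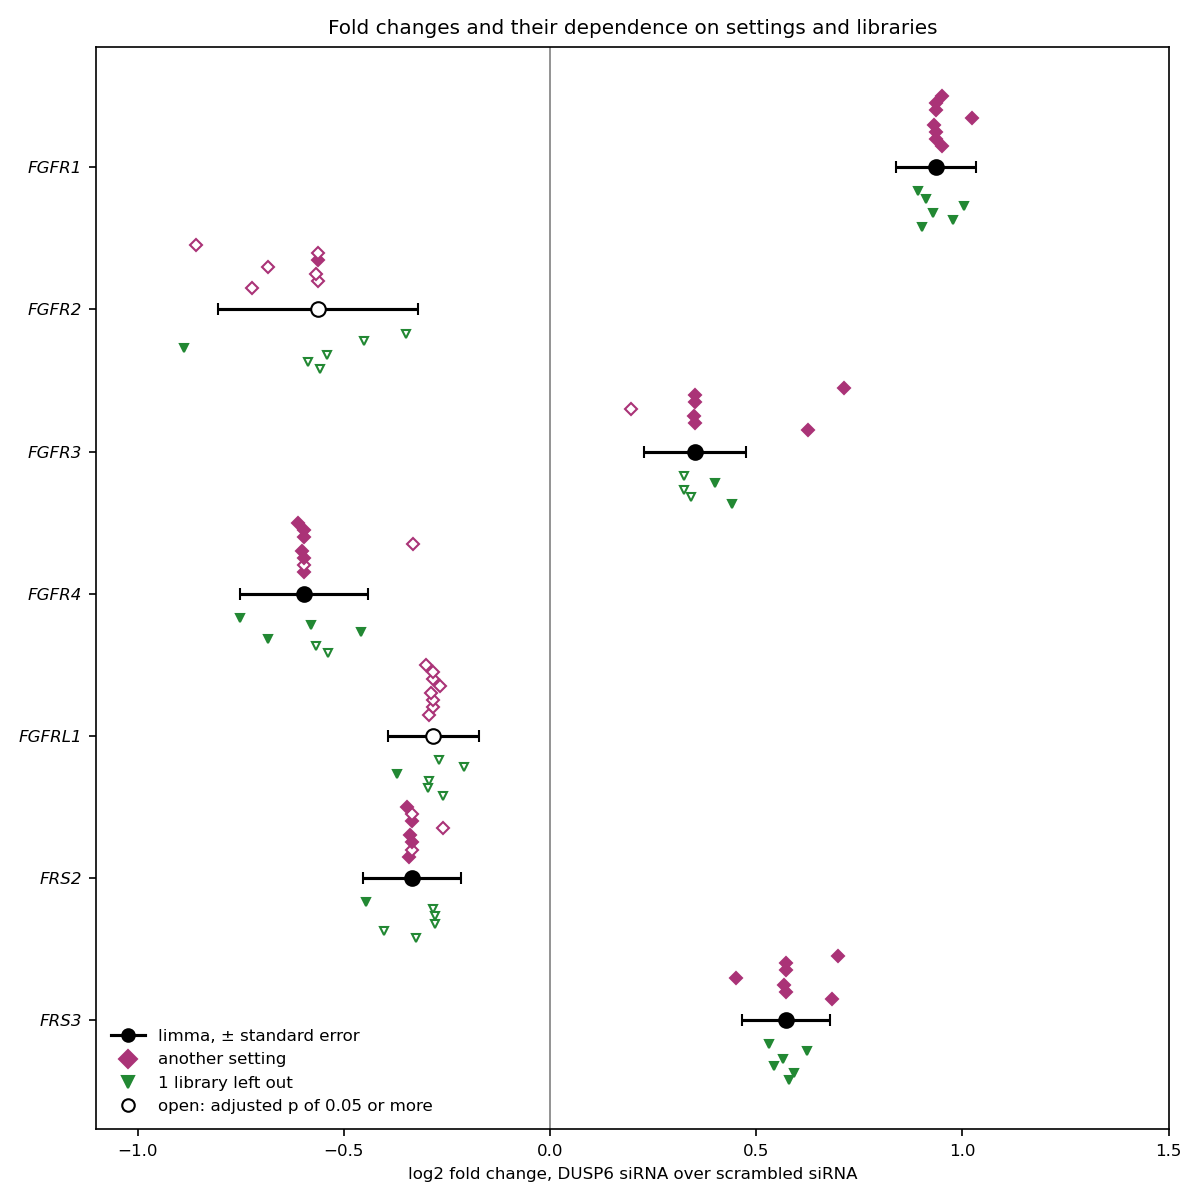
Log2 fold change of the 7 tested genes (x axis, *DUSP6* siRNA over scrambled siRNA) from limma with its standard error (black), under each other setting (purple diamonds) and with 1 library left out (green triangles), where open symbols have an adjusted p of 0.05 or more. *FGFR1* and *FRS3* keep filled symbols throughout, whereas *FGFR2*, *FGFR3*, *FGFR4*, *FGFRL1* and *FRS2* have symbols of both kinds.

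Levels of different genes were compared per kilobase of exon sequence, as the value divided by the length of the union of all GENCODE exons or of the MANE Select transcript, the reference isoform of each gene. By the first length, the mean levels per kilobase with scrambled siRNA were 298 for *FGFR4*, 8.12 for *FRS2*, 6.08 for *FGFRL1*, 2.42 for *FGFR1*, 1.24 for *FRS3*, 0.193 for *FGFR2*, 0.167 for *FGFR3* and 0.166 for *KLB*. *FGFR4* stood far above the rest, and the order of *FGFR2*, *FGFR3* and *KLB* lay within their spread. With *DUSP6* siRNA, the mean level per kilobase was 195 for *FGFR4*, 6.39 for *FRS2*, 4.94 for *FGFRL1* and 4.68 for *FGFR1*, and that of *FGFR3* (0.271) was above that of *FGFR2* (0.106). *FGFR1* and *FGFRL1* then differed by little more than their SDs of 0.248 and 0.144. By the MANE Select length *FGFR1* rose from 7.31 to 14.1 per kilobase and was above *FRS2* (6.84) and *FGFRL1* (6.28) after *DUSP6* siRNA, so the place of *FGFR1* in the order depends on the length used.

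**Figure D3:**
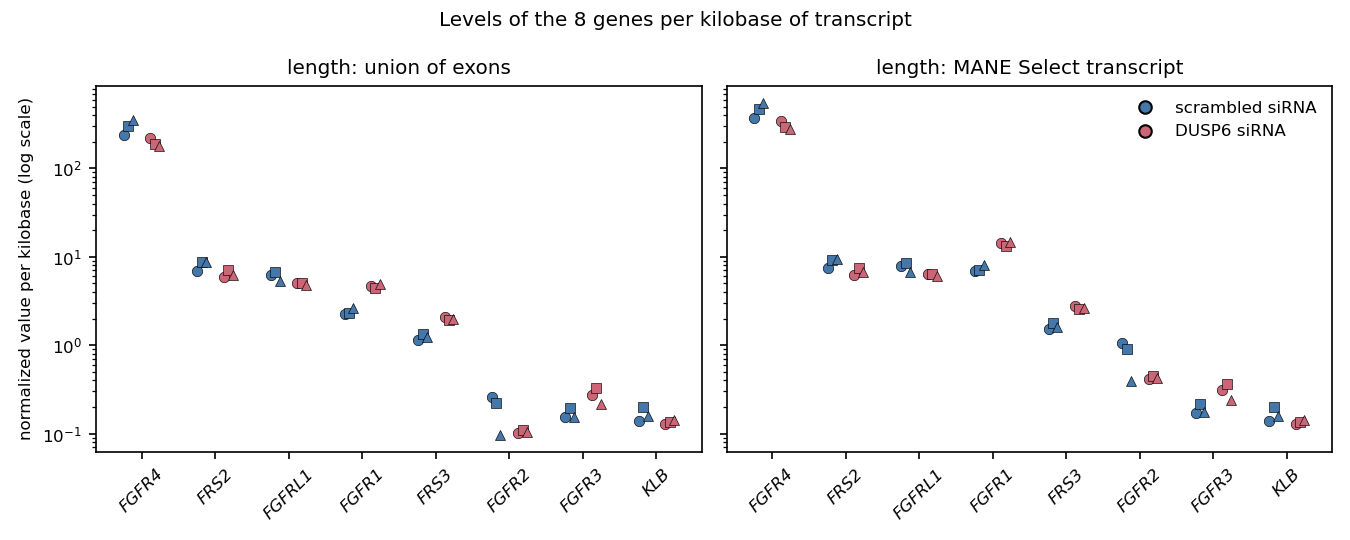
Normalized value per kilobase (y axis, log scale) of the 8 genes in each library, with the length taken as the union of exons (left) or the MANE Select transcript (right). Circles, squares and triangles are replicates 1, 2 and 3 of scrambled siRNA (blue) and *DUSP6* siRNA (red). *FGFR4* is the highest gene in all 6 libraries on both scales (means of 298 and 195 on the left, 464 and 304 on the right).

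*FGFR4* made up 98.9%, 99.1% and 99.2% of the summed levels per kilobase of the 4 receptor kinases in the scrambled siRNA libraries, and 97.7%, 97.5% and 97.2% in the *DUSP6* siRNA libraries. The share was lower in all 3 *DUSP6* siRNA libraries and stayed above 97% in each by this length, while by the MANE Select length it was 95.8%, 95.4% and 94.8% there. The difference of the means was -1.60 percentage points, and -2.90 by the MANE Select length (exact two-sided permutation test, p = 0.1 for either, again the lowest possible). The share of *FGFR1* went from 0.817% to 2.35% in the same sum, and from 1.57% to 4.46% by the MANE Select length. The sum itself was 301 ± 59.7 with scrambled siRNA and 200.4 ± 21.4 with *DUSP6* siRNA (SD, n = 3 each), a ratio of 0.665, which is close to that of *FGFR4* alone since *FGFR4* is nearly the whole sum. *FRS3* made up 13.3% of the summed levels per kilobase of both adaptors with scrambled siRNA and 24.1% with *DUSP6* siRNA, so *FRS2* was the more abundant adaptor in either group.

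The genes whose log2 values followed those of *FGFR4* most closely over the 6 libraries were *MEGF6* (Pearson r = 0.994), *SERTAD3* (0.991), *CEBPA-DT* (0.991), *GGT3P* (0.990) and *LFNG* (0.990), the last of which encodes a glycosyltransferase that modifies Notch receptors. *GGT3P* is a pseudogene that can share reads with its relatives, so its values are uncertain. The 6 points share the scaling of each library and the difference between the groups, and the coefficients are given as a description.

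Around the receptors, the ligands were almost silent. Of 22 listed genes with FGF names, not all of which encode receptor ligands, 17 were in the table and 1 passed the filter. This was *FGF13*, which encodes an intracellular FGF homologous factor and not a ligand of the receptors, with values of 16.8 to 23.2 against 27.6 to 33.7 and a rise of 0.61 on the log2 scale (limma adjusted p = 0.00618). The highest of the others, *FGF18* and *FGF11*, were at 1.34 and 1.26 or less in every library, and 82.1% of the exon sequence of *FGF11* is shared with another gene. *FGF19*, the endocrine ligand of *FGFR4*, had a single read in 1 of 6 libraries. FGFs in the serum or from other cells are not seen by these data.

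Of 11 genes for klotho proteins, FGF-binding proteins and surface proteins that interact with the receptors, 10 were in the table and 4 were tested, of which 3 were higher and 1 lower. Over all genes tested 19.7% were higher and 24.7% lower, and the median log2 fold change was 0.93 in the list and -0.01 over all genes. *CDH2* encodes N-cadherin, which binds FGFR1 at the cell surface, and had values of 7.96, 6.94 and 11.97 against 28.5, 36.8 and 31.2. Its groups were far apart (log2 fold change 1.76, limma adjusted p = 1.32e-04). Here and in the lists below, a lack of overlap is common, at 26.7% upward and 31.1% downward over all genes tested. *ANOS1*, for anosmin, a secreted protein that binds FGFR1, was also higher (1.22, limma adjusted p = 1.89e-04). *FLRT3*, for a membrane protein that binds FGF receptors, was higher as well (0.65, limma adjusted p = 0.00228). *NCAM1*, for a neural adhesion molecule that binds FGFRs, was lower (-1.19, adjusted p = 3.86e-04), but its mean with *DUSP6* siRNA was under the filter, it was tested through the scrambled siRNA libraries, and 7.89% of its exon sequence is shared with its antisense gene. Klotho itself (*KL*) was at 0.0245 or less in every library.

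Heparan sulfate, the sugar chain that holds an FGF to its receptor, is built and carried by the products of 23 listed genes, of which 22 were in the table and 18 were tested. Of these 3 were higher, 2 lower and 13 not called, beside 19.7% higher and 24.7% lower over all genes tested, with a median log2 fold change of 0.21. *GPC4*, for a glypican core protein, had values of 3.48, 3.95 and 3.34 against 7.91, 8.96 and 8.33 and rose without overlap (log2 fold change 1.04, limma adjusted p = 1.53e-04). *HS2ST1*, for the 2-O-sulfotransferase, was higher (0.66, adjusted p = 0.00471, with 8.5% of its exon sequence shared). *NDST1*, for an N-deacetylase and N-sulfotransferase that starts the sulfation of the chain, fell from 203, 185 and 203 to 116, 125 and 107 (-0.76, adjusted p = 3.02e-04), and *HSPG2*, for perlecan, was lower (-0.66, adjusted p = 0.00763, with 11.7% of its exon sequence shared). The number of higher genes rose to 6 under quantile normalization and without scrambled siRNA replicate 3.

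The signal passes from the receptor to adaptors and transducers. Of 20 listed genes 19 were tested, 3 were higher, 4 lower and 12 not called, beside 19.7% and 24.7% over all genes tested, with a median log2 fold change of 0.02. *GAB1*, for the docking protein that joins FRS2 and GRB2 to PI3K, was 68.5, 80.5 and 69.3 against 36.0, 38.2 and 38.4 (log2 fold change -0.93, limma adjusted p = 1.29e-04), while its paralog *GAB2* was higher, at 11.4, 14.4 and 10.3 against 20.9, 18.6 and 22.0 (0.73, adjusted p = 0.00264). Neither paralog had an overlap between the groups. *STAT3*, for a transcription factor that receptor kinases can activate, was lower (-0.65, adjusted p = 0.00242). *SOS1*, for the exchange factor that activates RAS, was also lower, at 117, 110 and 86.4 against 67.6, 70.1 and 67.0 (-0.59, adjusted p = 0.00371, with 5.46% of its exon sequence shared). *GRB2*, *PTPN11* and *PLCG1*, the best known partners of FRS2 and the receptors, were not called (-0.08, -0.14 and -0.06), and were named after their values were seen. Quantile normalization moved the number of higher genes from 3 to 8.

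Of 18 listed feedback and target genes of FGF and ERK signals 17 were tested, 8 were lower, 3 higher and 6 not called, beside 24.7% lower and 19.7% higher over all genes tested, and the median log2 fold change was -0.38. *SPRY4*, a Sprouty inhibitor of receptor kinase signals, had values of 115, 121 and 101 against 51.7, 43.1 and 45.3 and fell without overlap (log2 fold change -1.25, limma adjusted p = 4.68e-05). *DUSP5*, for a nuclear ERK phosphatase, was 160, 111 and 147 against 54.6, 43.9 and 51.2 (-1.45, adjusted p = 1.03e-04). *EGR1*, an immediate early transcription factor, was lower in all *DUSP6* siRNA libraries with a wide spread (221, 190 and 123 against 88.0, 18.7 and 57.1, -1.90, adjusted p = 0.0104). *ETV4*, an ETS factor induced by FGFs, was 11.6, 2.45 and 3.64 against 1.78, 1.28 and 1.75, with scrambled siRNA replicate 1 far above the rest (-1.18, adjusted p = 0.0368). Without that library its fold change was -0.63 (adjusted p = 0.0213), and the call was lost with no filter or without any 1 of the *DUSP6* siRNA libraries (adjusted p from 0.0697 to 0.129). Not all feedback genes moved this way, since *SPRY2*, named here after its values were seen, was higher (0.98, adjusted p = 2.52e-04). The number of higher genes fell to 1 under quantile normalization and without *DUSP6* siRNA replicate 3, and to 0 with a minimum mean of 10, which none of the 3 reached.

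Splicing of *FGFR2* to its epithelial form is set by the regulators ESRP1 and ESRP2, and both genes were lower. *ESRP1* had values of 472, 443 and 411 against 206, 179 and 203 (log2 fold change -1.17, limma adjusted p = 3.89e-05), and *ESRP2* of 354, 352 and 291 against 128, 107 and 113 (-1.51, adjusted p = 2.12e-05, with 5.80% of its exon sequence shared). Either gene fell without overlap. Of the 10 splicing factors listed, 5 were lower, 2 higher and 3 not called, beside 24.7% and 19.7% over all genes tested, with a median of -0.33. Among them were *HNRNPF* (-0.69, adjusted p = 4.95e-04) and the higher *CELF4* (0.50, adjusted p = 0.0294), a neural factor that was tested only through its values with *DUSP6* siRNA. The call of *CELF4* was lost with no filter, under quantile normalization and without scrambled siRNA replicate 1 or *DUSP6* siRNA replicate 1 or 2 (adjusted p from 0.0506 to 0.113), and the number of higher splicing factors was 0 or 1 in 7 of 14 alternatives. The values are sums over a gene, so which *FGFR2* isoform was made was not measured.

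The genes of the TACC, NSD and LETM families lie beside the FGF receptor genes in the genome, and 8 of 8 were tested. *TACC3* (log2 fold change -0.64, limma adjusted p = 0.00141) and *LETM1* (-0.65, adjusted p = 3.83e-04), both neighbors of *FGFR3*, were lower. *NSD3* (-0.33, adjusted p = 0.0170) was lower, a call that was lost under quantile normalization and without any 1 of the *DUSP6* siRNA libraries (adjusted p from 0.0537 to 0.0847), and *LETM2* (0.50, adjusted p = 0.00813, with 10.9% of its exon sequence shared) was higher, both neighbors of *FGFR1*. The other 4 were not called, *NSD1* beside *FGFR4* among them (0.03, adjusted p = 0.831, named after its values were seen). Of the 8, 3 were thus lower and 1 higher, beside 24.7% lower and 19.7% higher over all genes tested. The median log2 fold change was -0.24 over the 8 and -0.01 over all genes tested.

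**Figure D4:**
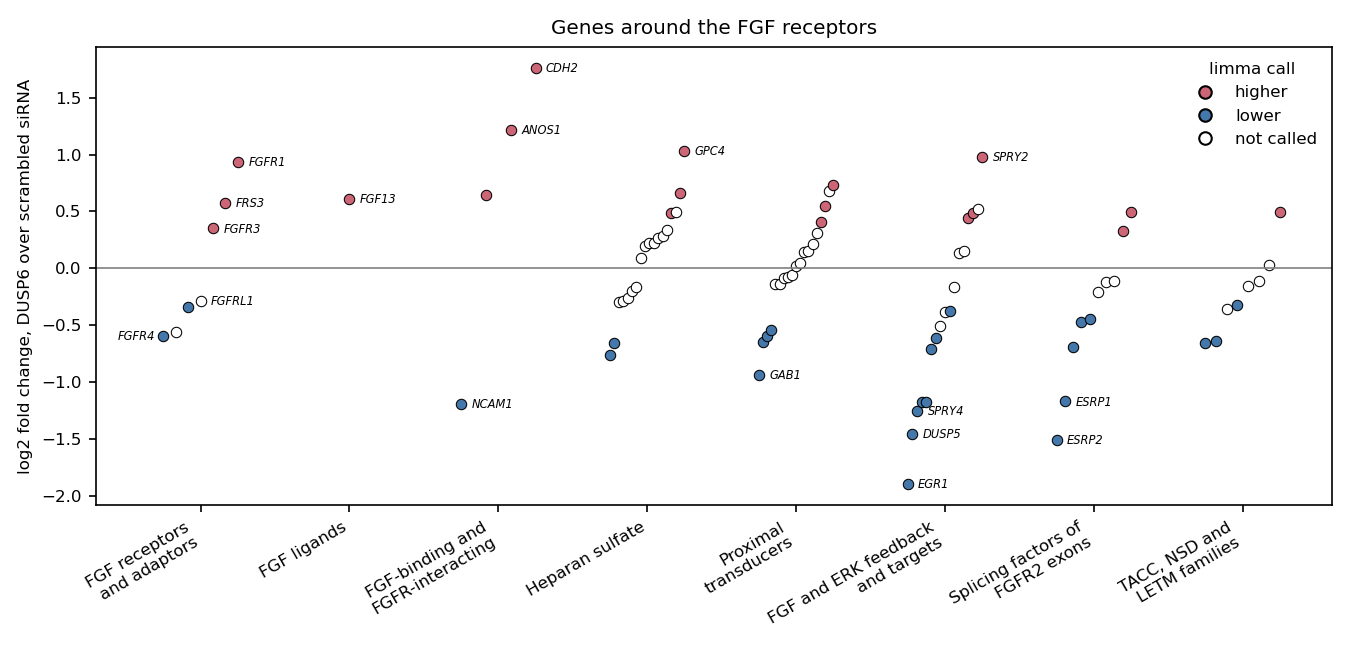
Log2 fold change (y axis, *DUSP6* siRNA over scrambled siRNA) of every tested gene in each list (x axis), with 1 point per gene in order of its fold change, red where limma called it higher, blue where lower and white where not called. Among the feedback and target genes 8 of 17 points are blue, and *CDH2* (1.76) stands at the top of all lists shown.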

How the data were processed

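RNA was sequenced from 3 libraries of MDA-MB-453 cells with scrambled siRNA and 3 with *DUSP6* siRNA. The authors made stranded libraries, aligned the reads to hg38 with Rsubread, counted them over RefSeq genes, and deposited a linear table of normalized signal, with a value for each gene in each library. The submitters' processing notes also name bcl2fastq and edgeR. The values were scaled counts: divided by the worth of a single read in their library, 100% came within 0.01 of a whole read, the worth of a read held the TMM factors, and the recovered depth was 45546981 to 85729785 reads. The paper states default settings of Rsubread for the counting and names no strand setting, so genes with shared exons are uncertain. Shared exon sequence was measured on GENCODE exons, whereas the reads were counted over RefSeq genes.

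limma 3.58.1 in R 4.3.3 (lmFit, eBayes with a trend) was run on log2(value + 1) for the 12862 genes whose mean reached 1. Tests were two-sided, p-values were adjusted by Benjamini-Hochberg, and an adjusted p under 0.05 was a call. limma and edgeR were tested on simulated data. The 8 genes and the gene lists were chosen with earlier results of these data known. Some listed genes are not reported here and stay out of the counts of their lists. From each pathway list the genes called were named, or the 4 with the largest change where more were called. Also named were the 3 listed FGF genes and up to 4 markers of highest value, and the 5 genes most like *FGFR4*. Exon lengths came from GENCODE (20732 of 22807 symbols matched) and positions from RefSeq (22359 of 22807 gene IDs). Levels per kilobase and ratios were compared with two-sided exact permutation tests.

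The alternatives were no filter, a minimum mean of 10, 0.1 added in place of 1, eBayes without a trend, a replicate block, quantile normalization, median-of-ratios scaling, the quasi-likelihood test of edgeR 4.0.16 on whole reads, and each library left out. The MANE Select length was added after the data were seen.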

Additional observations from a re-analysis of the deposited data

How the results depend on the processing

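*FGFR1*, *FRS3* and *DUSP6* kept their direction and their call under every alternative that tested them. With a minimum mean of 10, receptor and adaptor genes with low values left the test, so 1 of the 8 genes was higher in place of 3, and 1639 genes of the table were higher in place of 2540. The number of the 8 genes called lower went from 2 to 0 with no filter or quantile normalization and to 1 by eBayes without a trend. With no filter the log2 fold changes stayed at -0.60 for *FGFR4* (adjusted p = 0.0541) and -0.34 for *FRS2* (adjusted p = 0.0721). Under quantile normalization they were -0.33 for *FGFR4*, -0.26 for *FRS2* (adjusted p = 0.106) and 0.20 for *FGFR3*, and by eBayes without a trend -0.34 for *FRS2* (adjusted p = 0.0536). The cause was not tested.

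With 1 library left out, the number of the 8 genes called lower ranged from 0 to 3, and that of all genes called higher from 1535 to 3213, without *DUSP6* siRNA replicate 2 and without scrambled siRNA replicate 3. The log2 fold changes then ranged from -0.89 to -0.35 for *FGFR2*, from 0.32 to 0.44 for *FGFR3*, from -0.75 to -0.46 for *FGFR4*, from -0.37 to -0.21 for *FGFRL1* and from -0.45 to -0.28 for *FRS2*.

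The deviations of same-numbered libraries correlated at 0.0050, 0.087 and -0.076 over all genes tested. With 3 libraries per group, such correlations cannot exclude a pairing. With a replicate block the limma adjusted p of *DUSP6* went from 3.09e-04 to 8.38e-07 and that of *FRS3* from 0.00280 to 0.00559. A replicate block left 2495 genes higher and 3096 lower and called *FGFR2* lower (-0.56, adjusted p = 0.0322), and it changed no other call among the 8 genes. The 25 genes named from the pathway lists had 343 alternative values, of which 330 kept their direction and side of the threshold, 13 kept the direction but lost the call (*ETV4*, *CELF4* and *NSD3*) and 0 reversed. Depth limits *FGFR3* and *KLB*, with 129 reads or fewer per library.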
